A study of Homo sapiens with 12 samples.

Results

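The loss of labelled RNA over a chase was compared gene by gene between A375 and A375/211, 2 human melanoma lines, as the slope in A375/211 minus the slope in A375. A375 is an established melanoma line with an activated BRAF gene, and A375/211 is its derivative that overexpresses MIR211, from which the microRNA miR-211 is processed. The sources used here do not name the promoter that drives MIR211 or say whether A375/211 is 1 clone. In BRIC-seq, RNA is labelled with 5-bromouridine (BrU), the label is chased, and the labelled RNA that is left is pulled down and sequenced. Both lines were grown in the same medium and took up the label for 24 h, and cells were harvested when the label was withdrawn (0 h) and 1, 3 and 6 h later. The comparison used 8 of the 12 libraries of the series, with 1 library per line and time, and 13703 of 60675 genes in the table had counts enough for a test. The other libraries are RNA-seq of total RNA, labelled a and b in each line. The question is which transcripts are lost faster or slower when MIR211 is overexpressed. With 1 line on each side, an effect of miR-211 and any other difference of the lines cannot be told apart.

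MicroRNAs guide Argonaute proteins to messenger RNAs, mostly through pairing of a short seed near their 5′ end with the 3′ untranslated region (UTR), and this represses translation and shortens the life of the message. miR-211 is made from an intron of TRPM1, a gene driven by the melanocyte factor MITF, and it shares its seed with miR-204. Decay of a message is set by many other features too, such as AU-rich and Pumilio elements in the UTR, and messages of immediate early genes are known to be short-lived.

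The mature sequences show that both microRNAs have the same seed, printed in capitals (bases 2 to 8, counted from 1 at the 5′ end, from RefSeq, GRCh38.p14), so that a match in a UTR cannot be assigned to one of them.
hsa-miR-211-5p: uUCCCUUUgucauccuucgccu
hsa-miR-204-5p: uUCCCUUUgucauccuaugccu

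The DNA letters that pair with this seed are AAAGGGA. The windows of 30 bases below hold these letters in capitals, read on the gene's strand within the 3′ UTR of its MANE Select transcript (GENCODE 44, hg38). They are shown for HMGA2, CBFB, GLIPR1 and LRP8, the candidates called by DESeq2 that hold the letters, and for DUSP3, PDK4 and EDEM1, which are reported miR-211 targets.
HMGA2, chr12:65963946-65963975, plus strand: tcatttttcaaAAAGGGAagtaagcaaaca
CBFB, chr16:67099716-67099745, plus strand: agtcaatcagaAAAGGGAtactggagcttc
GLIPR1, chr12:75499464-75499493, plus strand: ccaaactttcaAAAGGGAtaaacctaaata
GLIPR1, chr12:75503028-75503057, plus strand: agcagaagtagAAAGGGAaggctttaggat
LRP8, chr1:53243418-53243447, minus strand: ttccagtggccAAAGGGAaatgctgactgc
DUSP3, chr17:43766548-43766577, minus strand: ggatggtttggAAAGGGAatgttggtgcct
DUSP3, chr17:43766224-43766253, minus strand: ttctggacagaAAAGGGAgagctaccaaat
PDK4, chr7:95585320-95585349, minus strand: ataagaataagAAAGGGAgtgagtgtgaag
EDEM1, chr3:5217487-5217516, plus strand: atttttagtcaAAAGGGAgaaatcttattc
EDEM1, chr3:5219827-5219856, plus strand: tatttaaattaAAAGGGAtctttttgtaaa
HMGA2 and CBFB are among the genes whose slope was lower in A375/211, and GLIPR1 and LRP8 are among those whose slope was higher, so the letters stand in candidates of both directions. BTG1, C5orf24, RAN, NEDD9, PAPPA, LAPTM4B and TMEM41B have 0 matches in the same UTR.

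The libraries held 2.67 to 7.28 M counts, with more counts at the later times in both lines (2.67, 3.95, 6.81 and 7.28 M in A375, and 2.78, 4.53, 6.26 and 6.66 M in A375/211). Mitochondrial genes took 18.1% of counts in A375/211 at 0 h and 34.1% in A375 at 6 h, the lowest and the highest share. Of 6 melanocyte markers TYR was at 0 in all 8 libraries, while MITF and SOX10 had 37 to 306 and 55 to 890 counts. The summed level of the 6 was 76.5 to 249 CPM (counts per 1 M counts of the library, whose size was scaled by TMM) in A375 and 69.5 to 194 CPM in A375/211. The members went opposite ways. In CPM, DCT (22 to 118 counts in A375, 95 to 457 in A375/211) and PMEL were higher in A375/211 at each time. SOX10 was lower there at each time, as was MLANA at low counts, and MITF was lower from 1 h on. Of the markers of other cell types, PTPRC and CD3E of leukocytes, VWF and CDH5 of endothelium and KRT5, KRT14 and DSG3 of keratinocytes were at 0 in every library. PECAM1 of endothelium had 0 to 4 counts. The summed level of 5 fibroblast markers was 2.33 to 14.5 CPM in A375 and 26.9 to 149 CPM in A375/211, where LUM had 86 to 537 counts, DCN 5 to 42 and COL1A2 0. In A375 DCN had 0 counts and COL1A2 0 to 30. COL1A1 and PDGFRB had at most 13 and 25 counts in any library. The 3 leukocyte markers summed to 1.69 to 7.43 CPM in A375 and 6.54 to 51.5 CPM in A375/211, all from LYZ, and the 4 endothelial markers to 1.06 to 4.12 CPM and 27.5 to 46.7 CPM, mostly from KDR in A375/211. The 4 keratinocyte markers summed to 0 in A375 and to at most 0.397 CPM in A375/211. The part of these markers in the slopes was not tested. MIR211 itself had 0 counts at each time in A375 and 9, 11, 2 and 3 counts in A375/211, and TRPM1 had 2 counts in A375/211 at 0 h and 0 in the other 7 libraries, so neither gene could be given a slope. These counts come from the gene locus, and the mature microRNA was not measured.

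Across 13703 genes tested, 0 had a slope that differed between the lines after adjustment (0% called, edgeR quasi-likelihood test, Benjamini-Hochberg). Without adjustment 527 genes (3.85%) had p under 0.05, of which 261 (1.9%) had a higher and 266 (1.94%) a lower slope in A375/211. DESeq2 called 18 of 17295 genes (0.104%), with 9 in each direction (0.052% each), and edgeR's likelihood ratio test called 23 (0.168%). These lists shared 7 genes, namely HMGA2, GLIPR1, PAPPA, BTG1, C5orf24, LRP8 and the low pseudogene BMS1P22. limma-voom called 0, with 442 genes at an unadjusted p under 0.05. The genes below are therefore candidates, and each is given with its values in all 8 libraries.

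A slope is the change of log2 CPM per hour. It is relative to the rest of the labelled RNA, so a positive slope means a loss slower than that of the average transcript. The median slope difference over all genes was 0.00165 log2 per hour, with 49.4% below 0, and with total counts as the scale it was -0.028 with 60.8% below 0. It was -0.072, with 73.2% below 0, when a row of the table that names no gene was held constant. That row had 3 counts at 0 h in each line, and its own slope difference had a 95% counting interval of -0.18 to 0.20. This scale thus cannot decide the sign of a median near 0. Without the A375/211 library of 6 h 57.8% of genes lay below 0. With the TMM scale the middle 50% of genes lay between -0.072 and 0.081. The standard error, which holds the scatter about both fitted lines, had a median of 0.125 and fell with the level, from 0.207 for genes with an average log2 CPM under 2 to 0.057 at 8 and over. Counting error alone was much smaller for well counted genes. The 95% interval from counting error excluded 0 for 4110 genes (30%), in 14.4% of genes at the lowest level and 66.3% at the highest. With 1 library per line and time, no time point has a replicate.

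**Figure D1:**
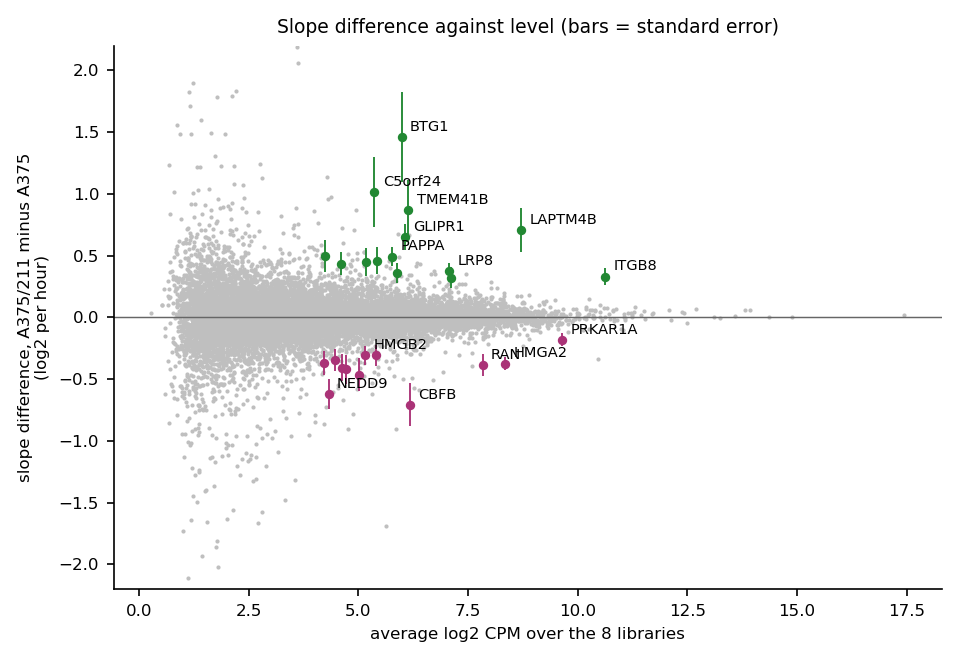
Slope difference, A375/211 minus A375 in log2 per hour, against the average log2 CPM over the 8 libraries, for each gene tested (grey, genes beyond the axis are not drawn). Coloured points with standard errors are candidates with a higher (green) or lower (purple) slope in A375/211, and the grey cloud narrows as the level rises.

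Most genes whose slope was called in a line were called in the same direction in the other line. In A375, 6465 genes (47.2%) had a slope that differed from 0 by edgeR's quasi-likelihood test after adjustment, and in A375/211 5877 (42.9%) did. Both lines called 2302 genes as falling and 2545 as rising. A375 alone called 1011 as falling and 603 as rising, A375/211 alone called 572 and 454, and 6212 were called in neither. The other 4 genes were called in opposite directions. GLIPR1, PAPPA and NBPF10 fell in A375 and rose in A375/211, and HMGB2 rose in A375 and fell in A375/211. The SD of the slopes over genes was 0.349 in A375 and 0.348 in A375/211, a ratio of 0.996.

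**Figure D2:**
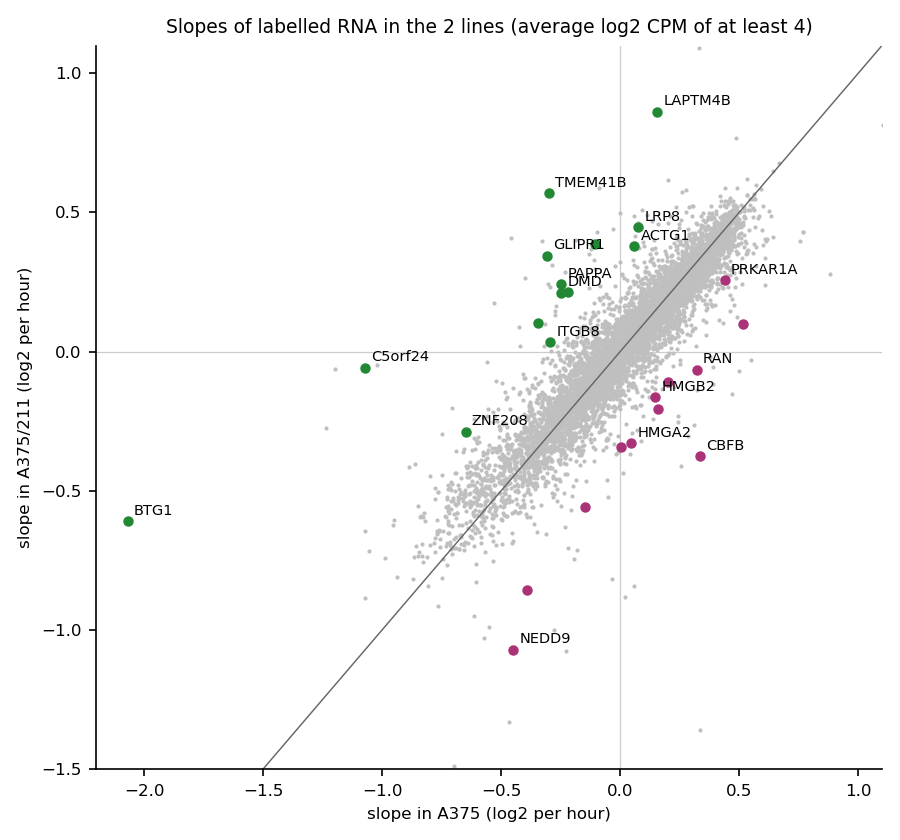
Slope in A375/211 against slope in A375, both in log2 per hour, for genes whose log2 CPM averages 4 or more (grey, genes beyond the axes are not drawn), with the diagonal of equal slopes. Candidates with a higher slope in A375/211 (green) lie above the diagonal and those with a lower slope (purple) below it, and GLIPR1, PAPPA and HMGB2 lie in the quadrants where the lines have opposite signs.

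HMGA2 (ENSG00000149948, chr12:65824460-65966291, plus strand, GENCODE 44, hg38), an architectural chromatin protein of embryonic and tumour cells and a known target of let-7 microRNAs, had the smallest edgeR p of a lower slope in A375/211 among genes whose log2 CPM averages 4 or more. Its labelled RNA was at 291, 298, 384 and 342 CPM at 0, 1, 3 and 6 h in A375 (989, 1410, 2780 and 1702 counts). In A375/211 it was at 522, 386, 264 and 129 CPM (1919, 1947, 1531 and 526 counts). The level showed no steady fall in A375 and fell at each step in A375/211, so the order of the lines turned between 1 and 3 h. The log2 ratio of A375/211 to A375 went from 0.84 at 0 h (95% counting interval 0.73 to 0.95) through 0.37 and -0.54 to -1.41 at 6 h (-1.55 to -1.27). The slope was 0.046 log2 per hour in A375 and -0.33 in A375/211, a difference of -0.38 with a standard error of 0.052 (edgeR unadjusted p = 0.000123, adjusted p = 1, DESeq2 adjusted p = 7.7e-05). Leaving out any 1 library kept the difference between -0.48 and -0.36. HMGA2-AS1, which overlaps HMGA2 on the other strand, fell in both lines, from 500 to 73 counts in A375 and from 1320 to 132 in A375/211, with a slope difference of -0.0058 (SE 0.27). In RNA-seq, HMGA2 was at 169 and 68.9 CPM in A375 and at 91.6 and 58 CPM in A375/211 (libraries a and b), so the ranges of the lines overlapped.

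CBFB (ENSG00000067955, chr16:67028984-67101058, plus strand), the partner subunit of the RUNX transcription factors, had slopes of opposite sign in the lines, 0.34 log2 per hour in A375 (edgeR adjusted p = 0.0608) and -0.37 in A375/211 (adjusted p = 0.0407). It was at 33.3, 42.5, 150 and 114 CPM in A375 and at 79.9, 100, 35.2 and 21.6 CPM in A375/211. Up to 1 h it was higher in A375/211, and from 3 h on it was higher in A375, with a log2 ratio of 1.26 at 0 h and -2.40 at 6 h. The slope difference was -0.71 log2 per hour (SE 0.17, edgeR unadjusted p = 0.00406, DESeq2 adjusted p = 0.0125), with a counting interval of -0.77 to -0.64. Without the A375 library of 6 h it was -1.13. In RNA-seq CBFB was at 89.9 and 84.4 CPM in A375 and at 61.7 and 79.5 CPM in A375/211.

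RAN (ENSG00000132341, chr12:130872037-130877678, plus strand), the small GTPase of nuclear transport, was at 151, 119, 273 and 490 CPM in A375 and at 193, 208, 243 and 146 CPM in A375/211. It rose within the labelled RNA of A375 and ended below its start in A375/211, and the largest gap was at 6 h. The slope difference was -0.39 log2 per hour (SE 0.09, edgeR unadjusted p = 0.00296, DESeq2 adjusted p = 0.0496). Without the A375/211 library of 6 h it was -0.26.

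NEDD9 (ENSG00000111859, chr6:11183298-11382348, minus strand), a scaffold of adhesion signalling that promotes melanoma metastasis, was lost in both lines, with the steeper slope in A375/211. It was at 35, 26, 9.38 and 5.83 CPM in A375 and at 49.5, 28.2, 4.48 and 0.735 CPM in A375/211, where the last value stands for 3 counts. The lines were close at 1 h and parted after it. The slopes were -0.45 and -1.07 log2 per hour, a difference of -0.62 (SE 0.12, edgeR unadjusted p = 0.00125, likelihood ratio adjusted p = 0.0463, DESeq2 adjusted p = 0.282).

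HMGB2 (ENSG00000164104, chr4:173331376-173334432, minus strand), a chromatin protein of cycling cells, was at 31.5, 44.6, 50.8 and 63.5 CPM in A375 and at 28, 26.6, 23.1 and 14.2 CPM in A375/211. The lines started at like levels and moved steadily apart, with no overlap after 0 h. The slope was 0.15 in A375 (edgeR adjusted p = 0.0482) and -0.16 in A375/211 (adjusted p = 0.0467), and their difference of -0.31 (SE 0.075) had an edgeR unadjusted p of 0.00384 and did not pass by DESeq2 (adjusted p = 0.63).

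The other 7 candidates on this side did not pass any of the adjusted tests. PRKAR1A, the regulatory subunit of protein kinase A, was at 385, 407, 792 and 2225 CPM in A375 and at 418, 403, 658 and 1132 CPM in A375/211, a slope difference of -0.18 (SE 0.054, edgeR unadjusted p = 0.0104). Both lines thus rose, to a lower end in A375/211. PARPBP, a regulator of homologous recombination, was at 16.2, 16.1, 29.9 and 34 CPM in A375 and at 63.1, 75.1, 57.4 and 44.1 CPM in A375/211 (difference -0.31, SE 0.083). TTLL4, a tubulin glutamylase, stayed between 19.9 and 24.7 CPM in A375 and went from 29.4 to 6.86 CPM in A375/211 (difference -0.34, SE 0.088). The level of TTLL4 was thus lower in A375/211 at 6 h alone by more than its counting error.

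TMEM106C, a membrane protein, was at 11.2, 9.94, 16.4 and 83.2 CPM in A375 and at 21.8, 14.7, 22.9 and 27.9 CPM in A375/211 (difference -0.42, SE 0.12). COMMD2, of the COMMD family of endosomal trafficking, was at 31.8, 30, 34.9 and 16.1 CPM in A375 and at 35.3, 30.5, 10.9 and 3.92 CPM in A375/211 (difference -0.41, SE 0.11). The first was set apart by its high value in A375 at 6 h, and the second was alike in the lines up to 1 h and lower in A375/211 after it. MLLT6, a chromatin reader known from leukaemia fusions, was at 15.3, 16.1, 21.9 and 28.9 CPM in A375 and at 16.9, 21.4, 16.9 and 7.84 CPM in A375/211 (difference -0.37, SE 0.098). ZNF107, a zinc finger gene, was at 57.1, 64.1, 20.1 and 13.9 CPM in A375 and at 46.2, 43, 10.3 and 1.47 CPM in A375/211 (difference -0.46, SE 0.14), where the last value stands for 6 counts. ZNF107 was lost in both lines and was lower in A375/211 at each time. Without the A375 library of 6 h, PRKAR1A moved to -0.11, TMEM106C to -0.12, COMMD2 to -0.62 and ZNF107 to -0.30, and without the A375/211 library of 6 h MLLT6 moved to -0.24.

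GLIPR1 (ENSG00000139278, chr12:75480753-75503863, plus strand), a CAP superfamily protein first described in glioma, had the smallest DESeq2 p of a higher slope in A375/211 at the same level of expression, and PAPPA the smallest edgeR p. In A375 it was at 49.8, 30.4, 21.9 and 12.9 CPM (169, 144, 159 and 64 counts). In A375/211 it was at 34.5, 77.9, 124 and 180 CPM (127, 393, 722 and 734 counts). It fell at each step in A375 and rose at each step in A375/211, and only at 0 h was it higher in A375. The log2 ratio of the lines went from -0.53 at 0 h (95% counting interval -0.87 to -0.19) to 3.81 at 6 h (3.44 to 4.20). The slopes of -0.31 and 0.35 log2 per hour each passed (edgeR adjusted p of 0.0152 and 0.0102), and the difference was 0.65 (SE 0.11, edgeR unadjusted p = 0.000361, DESeq2 adjusted p = 0.000356, likelihood ratio adjusted p = 0.000435). Leaving out any 1 library gave 0.54 to 0.82. KRR1, which overlaps it on the other strand, had a slope difference of 0.16 (SE 0.058, edgeR unadjusted p = 0.026). The antisense gene GLIPR1-AS1 went from 47 to 13 counts in A375 and from 22 to 12 in A375/211, with a slope difference of 0.33 (SE 0.23). In RNA-seq GLIPR1 was at 0.836 and 1.29 CPM in A375 and at 10.8 and 8.7 CPM in A375/211, so it was higher in both total RNA libraries of A375/211.

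PAPPA (ENSG00000182752, chr9:116153791-116402321, plus strand), a metalloprotease that frees insulin-like growth factor from its binding proteins, was at 24.7, 16.9, 9.93 and 8.64 CPM in A375. In A375/211 it was at 60.1, 62.9, 94.8 and 158 CPM. All values of A375/211 lay above all values of A375, and the gap widened at each time, from a log2 ratio of 1.28 at 0 h to 4.19 at 6 h. The slope difference was 0.49 log2 per hour (SE 0.079, edgeR unadjusted p = 0.00032, DESeq2 adjusted p = 0.00193, likelihood ratio adjusted p = 0.00235), and 0.43 to 0.67 with any 1 library left out. PAPPA-AS1, on the opposite strand, moved the same way, with 24, 42, 13 and 14 counts in A375 and 58, 106, 163 and 186 in A375/211 (difference 0.55, SE 0.15, edgeR unadjusted p = 0.00848). Since the strand setting of the counting is not given, reads of the 2 genes cannot be told apart. In RNA-seq PAPPA was low, at 4.28 and 1.36 CPM in A375 and at 8.72 and 4.08 CPM in A375/211 (libraries a and b), so the ranges of the lines overlapped.

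LRP8 (ENSG00000157193, chr1:53242364-53328469, minus strand), a receptor of apolipoprotein E and reelin, was at 108, 127, 126 and 155 CPM in A375 and at 48.4, 59.7, 158 and 286 CPM in A375/211. It was lower in A375/211 up to 1 h and higher from 3 h on. The slope difference was 0.37 log2 per hour (SE 0.071, edgeR unadjusted p = 0.000976, DESeq2 adjusted p = 0.0228, likelihood ratio adjusted p = 0.0422), and 0.35 to 0.47 with any 1 library left out. Its RNA-seq values overlapped, at 128 and 130 CPM in A375 and 162 and 124 CPM in A375/211.

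LAPTM4B (ENSG00000104341, chr8:97775057-97853013, plus strand), a lysosomal membrane protein that controls growth signalling from endosomes and lysosomes, was at 213, 174, 510 and 320 CPM in A375 and at 51.7, 70.2, 521 and 1504 CPM in A375/211. The lines did not differ beyond counting error at 3 h (log2 ratio 0.032, counting interval -0.038 to 0.10), with A375 higher before and A375/211 higher after. The slope difference was 0.71 (SE 0.18, edgeR unadjusted p = 0.00516, DESeq2 adjusted p = 0.0108). With each time as a term shared by both lines, it was the only gene that passed (0.71, edgeR adjusted p = 0.0117). Without the A375 library of 6 h the difference was 0.39. In RNA-seq it was at 81.6 and 105 CPM in A375 and at 88.3 and 95.1 CPM in A375/211.

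TMEM41B (ENSG00000166471, chr11:9280654-9314636, minus strand), an endoplasmic reticulum lipid scramblase needed for autophagy, was at 86.9, 29.4, 43.5 and 18.9 CPM in A375 and at 18.2, 29.2, 180 and 155 CPM in A375/211. The lines were at like levels at 1 h, with A375 higher before and A375/211 higher after. Its slope difference of 0.87 (SE 0.24, edgeR unadjusted p = 0.00823, DESeq2 adjusted p = 0.0155) was 1.39 without the A375/211 library of 6 h.

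BTG1 (ENSG00000133639, chr12:92140278-92145846, minus strand), an antiproliferative gene whose product recruits the CCR4-NOT deadenylase, was lost in both lines, with the steeper slope in A375. It was at 73 and 56.2 CPM at 0 and 1 h in A375 and at 0.966 CPM at 3 h (7 counts), and had 0 counts at 6 h, which allows up to 0.741 CPM (upper 95% Poisson bound). In A375/211 it was at 195, 140, 24.5 and 17.9 CPM (716, 707, 142 and 73 counts). All values of A375/211 lay above those of A375 at the same time. The log2 ratio was 1.41 at 0 h and 4.66 at 3 h (3.58 to 6.00), and at 6 h its lower counting bound was 4.56. The slope difference of 1.46 (SE 0.36, edgeR unadjusted p = 0.00432, DESeq2 adjusted p = 0.00219, likelihood ratio adjusted p = 0.00873) rests on few A375 counts. It was 2.25 without the A375 library of 0 h and 0.86 without that of 3 h. In RNA-seq BTG1 was at 232 and 88.6 CPM in A375 and at 257 and 65.4 CPM in A375/211, where the libraries a and b differed more than the lines.

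C5orf24 (ENSG00000181904, chr5:134845680-134859735, plus strand) was also at 0 counts in A375 at 6 h, after 177, 88 and 67 counts, and had 106, 507, 439 and 171 counts in A375/211. Its slope difference of 1.01 (SE 0.28, DESeq2 adjusted p = 0.0155) was 1.59 without the A375 library of 3 h. DDX46, which overlaps it on the same strand, had 5099 and 4682 counts at 6 h and a difference of 0.045 (SE 0.045), and how reads were shared between them is not given in the sources used here. Single zeros were not confined to these genes. Of all genes, 45 were at 0 in exactly 1 library with a median of at least 50 counts in the others, 9 of them in A375 at 6 h and 11 in A375/211 at 6 h. Their part in the slope differences was not tested.

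The other candidates with a higher slope in A375/211 were ITGB8, NBPF10, ZNF208, DMD, HIVEP1, SLC37A4 and ACTG1, which had no adjusted p under 0.05 by edgeR or DESeq2. ITGB8 (ENSG00000105855, chr7:20330702-20415754, plus strand), an integrin chain that activates TGF-beta, was at 437, 469, 320 and 139 CPM in A375 and at 2288, 2967, 3234 and 2832 CPM in A375/211. It fell in A375 (slope -0.29, edgeR adjusted p = 0.00426) and had a slope of 0.035 in A375/211 (adjusted p = 0.566), with all values of A375/211 above those of A375 (difference 0.33, SE 0.068, edgeR unadjusted p = 0.00152). DMD, the dystrophin gene, had only 9, 19, 15 and 6 counts in A375 and 181, 336, 542 and 506 counts in A375/211 (difference 0.46, SE 0.11, counting interval 0.24 to 0.67). HIVEP1, a zinc finger repressor, was at 55.9, 65.5, 23.6 and 16.5 CPM in A375 and at 23.6, 26, 42.1 and 34.3 CPM in A375/211 (difference 0.45, SE 0.11). ZNF208 fell in both lines and was at 78.9, 66.2, 20.4 and 6.03 CPM in A375 and at 98.2, 107, 63.6 and 33.1 CPM in A375/211 (difference 0.36, SE 0.081). HIVEP1 thus changed order between 1 and 3 h, and ZNF208 was higher in A375/211 at each time.

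NBPF10 was at 30.9, 16.5, 18.9 and 10.4 CPM in A375 and at 19.3, 19.8, 30.5 and 44.6 CPM in A375/211 (difference 0.43, SE 0.093), and it belongs to a family of near-identical copies, so its reads are uncertain. SLC37A4, the glucose-6-phosphate transporter, was at 16.5, 17.8, 24.7 and 9.84 CPM in A375 and at 9.79, 8.92, 16.7 and 43.6 CPM in A375/211 (difference 0.50, SE 0.13). ACTG1, a cytoplasmic actin, was at 109, 159, 97.5 and 168 CPM in A375 and at 60.1, 80.3, 146 and 289 CPM in A375/211 (difference 0.32, SE 0.085). SLC37A4 and ACTG1 started lower in A375/211 and ended higher there. Without the A375 library of 6 h, ITGB8 moved to 0.20, SLC37A4 to 0.18 and ACTG1 to 0.48.

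**Figure D3:**
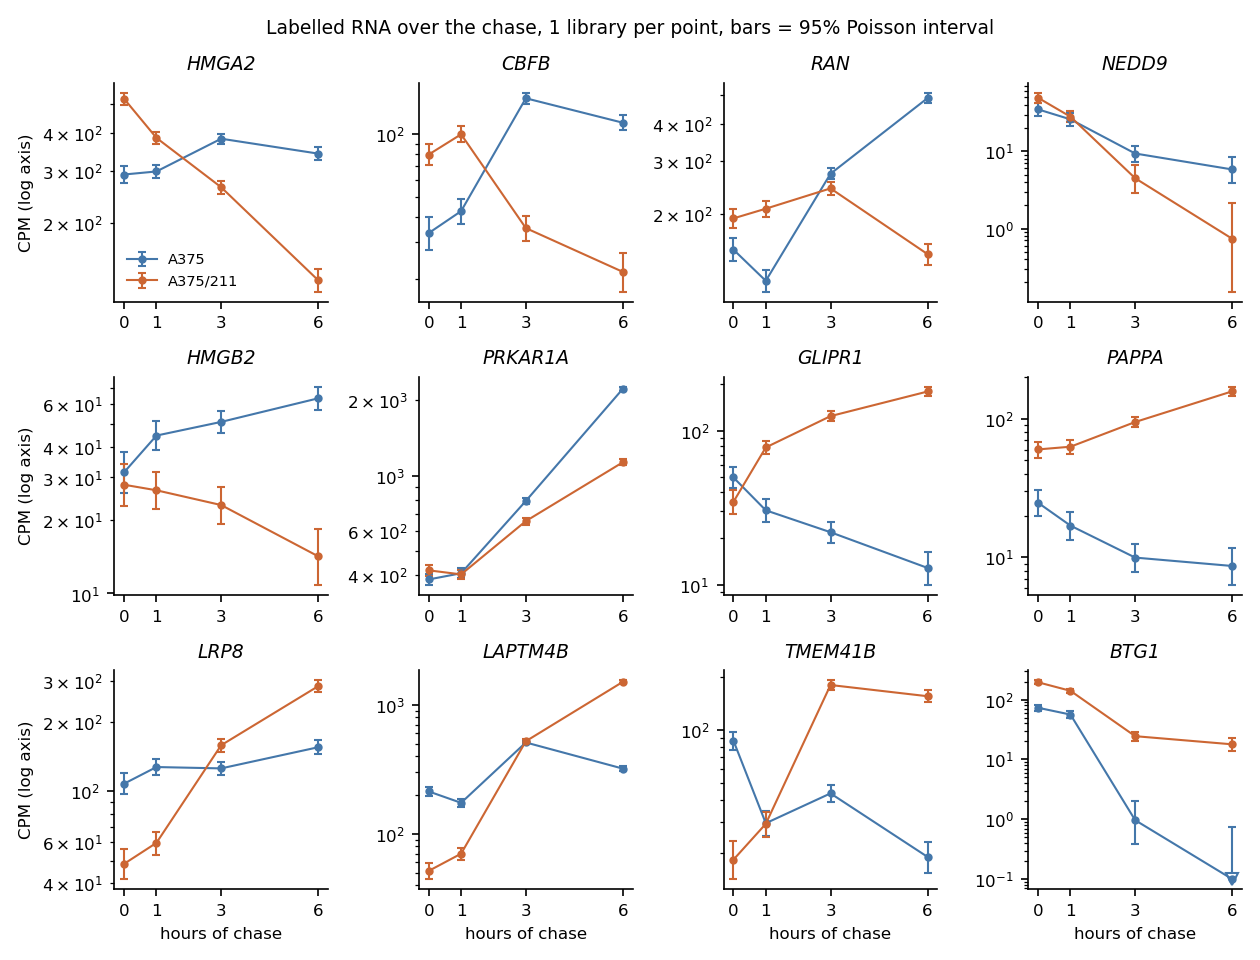
CPM on a log axis against hours of chase for 12 candidates, with A375 in blue and A375/211 in orange, 1 library per point and exact 95% Poisson intervals (counting error only). HMGA2 and CBFB end lower and GLIPR1, PAPPA and LRP8 end higher in A375/211, and the open triangle marks the 0 counts of BTG1 in A375 at 6 h, drawn at the foot of the axis.

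Of 15 reported miR-211 targets, 8 had a slope difference above 0 and 7 below 0, with a median of 0.001 log2 per hour beside 0.00165 over all genes tested. The phosphatase DUSP3 was at 23, 27.3, 30.8 and 12 CPM in A375 and at 29.6, 35.3, 11.9 and 8.58 CPM in A375/211. It was higher in A375/211 up to 1 h and lower from 3 h on, beyond counting error at 1 and 3 h alone. The counting interval of the log2 ratio of the lines included 0 at 0 h (-0.065 to 0.81) and at 6 h (-1.14 to 0.13). The slope difference was -0.20 (SE 0.14, edgeR unadjusted p = 0.197), with a counting interval of -0.31 to -0.088, which excludes 0. It was -0.49 without the A375 library of 6 h and -0.10 without that of 0 h. PDK4, the kinase that inhibits pyruvate dehydrogenase, was at 23.8, 28.5, 8.28 and 3.42 CPM in A375 and at 17.9, 17, 3.45 and 1.47 CPM in A375/211. It fell in both lines and was lower in A375/211 at each time, though within counting error at 0 h (log2 ratio interval -0.90 to 0.077) and 6 h (-2.85 to 0.19). Its slope difference of -0.14 had a standard error of 0.16 and a counting interval of -0.36 to 0.075. In total RNA both genes were further apart, with DUSP3 at 67.8 and 71.8 CPM in A375 and 15 and 10.4 CPM in A375/211, and PDK4 at 61.3 and 56.8 CPM against 13.4 and 13.7 CPM.

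EDEM1, which directs misfolded glycoproteins to degradation, was the 1 reported target with an unadjusted p under 0.05, beside 3.85% of all genes tested. With that share, 1 such gene does not set the list of reported targets apart from other genes. EDEM1 had the higher slope in A375/211. It was at 225, 267, 319 and 340 CPM in A375 and at 182, 223, 358 and 497 CPM in A375/211 (difference 0.15, SE 0.053, edgeR unadjusted p = 0.0245, adjusted p = 1), and 0.075 without the A375 library of 6 h. The transcription factor POU3F2 had a difference of -0.24 (SE 0.18) and the receptor TGFBR2 one of -0.087 (SE 0.16). DUSP6, RAB22A and NUAK1 had differences of 0.001, 0.0076 and -0.0035, with standard errors of 0.296, 0.138 and 0.195 by DESeq2. NFAT5, SERINC3, KCNMA1, IGF2R, IGFBP5, SOX11 and AP1S2 lay between -0.068 and 0.078. The number of seed matches did not order these values, as RAB22A has 4 matches and NUAK1 3 in the MANE Select UTR and both lay near 0. Of 17 further targets of the miR-204 family that were tested, 11 lay above and 6 below 0 (median 0.038). With the row that names no gene held constant their median was -0.038, and that over all genes was -0.072. HMGA2, which is on that list, was the 1 member with an unadjusted p under 0.05, again beside 3.85% of all genes tested.

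Over all genes with an annotated 3′ UTR (10757), the seed letters AAAGGGA (searched on the transcript strand alone, without regard to overlap with the other motifs) stood in the longest UTR of 22.6%. The 8326 genes with 0 matches had a median slope difference of -0.0022 log2 per hour, the 1867 genes with 1 match 0.0042 and the 564 genes with at least 2 matches 0.01. The share below 0 was 51%, 48% and 44.7% in the same order. These shifts were small beside the median standard error of 0.125, which is that of a single gene and not of a group median. With the TMM scale the groups with a match lay above 0, that is, towards slower loss in A375/211. The sign of medians so near 0 hangs on the scale. The median over all genes was -0.028 with total counts and -0.072 with the row that names no gene held constant. The groups also differed in UTR length, with medians of 1407, 2976 and 4887 bases, and in the median slope in A375, which was 0.0067, -0.086 and -0.12 log2 per hour. The AU-rich letters TATTTAT gave a like split, with medians of -0.010 for the 6287 genes without and 0.013 for the 4470 genes (41.6%) with a match. The Pumilio letters TGTANATA gave medians of -0.0021 and 0.0031 (34.7% with a match). A match describes the letters and does not show that a site is used.

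The gene lists are described by counts, since no member of any list passed by edgeR's quasi-likelihood test after adjustment. Among genes that encode zinc finger (ZNF) factors, 244 of 381 had a higher and 137 a lower slope in A375/211 (median 0.072), and 21 had an unadjusted p under 0.05, 11 above and 10 below 0, beside 3.85% of all genes tested in either direction. Of the genes that report ERK signalling, 17 of 21 lay above 0 (median 0.074) with 0 at an unadjusted p under 0.05. Among them the feedback phosphatases DUSP4 (0.074, SE 0.20) and DUSP5 (0.096, SE 0.23) and the immediate early factor EGR1 (0.37, SE 0.26) did not pass. Immediate early genes, whose list overlaps that of the ERK genes, had 15 of 21 above 0 (median 0.084). Of 5 BTG and TOB genes 3 lay above 0, and BTG2 (0.25, SE 0.46) and TOB1 (0.25, SE 0.24) had standard errors as large as their values or nearly so. Of the 13 mitochondrially encoded mRNAs 11 lay above 0 (median 0.057), with 0 at an unadjusted p under 0.05. With the row that names no gene held constant, the medians of the ZNF, ERK, immediate early and mitochondrial lists fell just below 0 (-0.009, -0.0059, -0.0059 and -0.0095), and that of the BTG and TOB genes was 0.16. The median over all genes fell to -0.072 on that scale, so these lists still lay above it.

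Actin and tubulin genes leaned the other way, with 20 of 25 below 0 and a median of -0.068. In this list 4 of 25 members had an unadjusted p under 0.05, beside 3.85% of all genes tested, namely the tubulin genes TUBA1A (-0.13, SE 0.047), TUBA1B (-0.10, SE 0.042) and TUBA1C (-0.14, SE 0.050), whose near-identical copies make their reads uncertain, and ACTG1, which lay above 0. TUBA1C was -0.23 without the A375 library of 6 h. The actin and tubulin median was below 0 with each of 5 other scalings and with each library left out. The same held for 12 hypoxia genes (median -0.057, with 7 of 12 below 0). No other list of at least 5 genes tested kept the sign of its median with each library left out. Most of these scalings also lowered the median over all genes, to -0.028 with total counts and -0.072 with the row that names no gene held constant. A list median clearly below 0 could thus hardly turn with them, and those of glycolysis and proliferation genes also kept their sign. The medians given below on these 2 scales stand beside those values. The TGF-beta response had 11 of 15 below 0 (median -0.058, and 0.003 without the A375 library of 0 h), and its 1 member with an unadjusted p under 0.05, the SMAD repressor SKIL, lay above 0 (0.35, SE 0.13) and at 0.18 without the A375/211 library of 6 h. Ribosomal protein genes were split, 38 above and 43 below 0 (median -0.0024), as were 20 genes of the invasive state (10 and 10) and 9 of the melanocyte lineage (4 and 5), in which MITF had a difference of -0.17 (SE 0.10, edgeR unadjusted p = 0.124). Genes of the cell's stress responses were mixed. Of 23 p53 targets 14 lay above and 9 below 0 (median 0.028, -0.0021 with total counts as the scale and -0.045 with the row that names no gene held constant), and the 2 with an unadjusted p under 0.05 lay below. SESN1, an inhibitor of mTORC1 signalling, was at 109, 83.3, 35 and 8.84 CPM in A375 and at 54.4, 43.4, 12.9 and 0.735 CPM in A375/211 (difference -0.34, SE 0.13). GADD45A, a growth arrest gene, was at 24.1, 28.1, 21.7 and 17.1 CPM in A375 and at 33.7, 22.4, 9.48 and 8.09 CPM in A375/211 (difference -0.25, SE 0.10). SESN1 was lower in A375/211 at each time, and GADD45A was higher there only at 0 h. Of 12 hypoxia genes NDRG1 had a difference of -0.31 (SE 0.13), and -0.023 without the A375 library of 6 h. SESN1 was -0.15 and GADD45A -0.55 without the A375/211 library of 6 h. Of 25 genes of the unfolded protein response and ATF4, 15 lay above 0 (median 0.040, 0.011 with total counts as the scale and -0.033 with the row that names no gene held constant), among them the co-chaperone DNAJC3 (0.17, SE 0.068) and VLDLR (0.73, SE 0.26), whose A375 counts were 40, 53, 45 and 0. Without the A375 library of 6 h these were 0.050 and 0.27. Of 21 snoRNA hosts and other long noncoding RNAs 16 lay above 0 (median 0.039, 0.0058 with total counts as the scale and -0.038 with the row that names no gene held constant), but NEAT1, the scaffold of paraspeckles, lay below. NEAT1 was at 1675, 1735, 1750 and 1950 CPM in A375 and at 2615, 2668, 2410 and 2023 CPM in A375/211, so that the lines started apart and nearly met at 6 h (difference -0.10, SE 0.035, edgeR unadjusted p = 0.0206).

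Genes of the mRNA decay machinery had 26 of 42 above 0 (median 0.015, -0.016 with total counts as the scale and -0.062 with the row that names no gene held constant) and those of the microRNA pathway 5 of 12 (median -0.0089). The median over all genes was -0.028 with total counts and -0.072 with that row held constant. The deadenylase PAN2 was at 29.1, 37.4, 55.5 and 80.2 CPM in A375 and at 55.7, 57.5, 71.7 and 72.3 CPM in A375/211 (difference -0.17, SE 0.064, edgeR unadjusted p = 0.031). Of the genes that bind AU-rich or Pumilio elements, RC3H2, a roquin that destabilises stem-loop messages, was at 215, 209, 170 and 134 CPM in A375 and at 164, 194, 226 and 186 CPM in A375/211 (difference 0.14, SE 0.059). Both lines reached like levels of PAN2 at 6 h from a lower start in A375, and RC3H2 was higher in A375/211 from 3 h on. Without the A375/211 library of 6 h RC3H2 was 0.22.

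**Figure D4:**
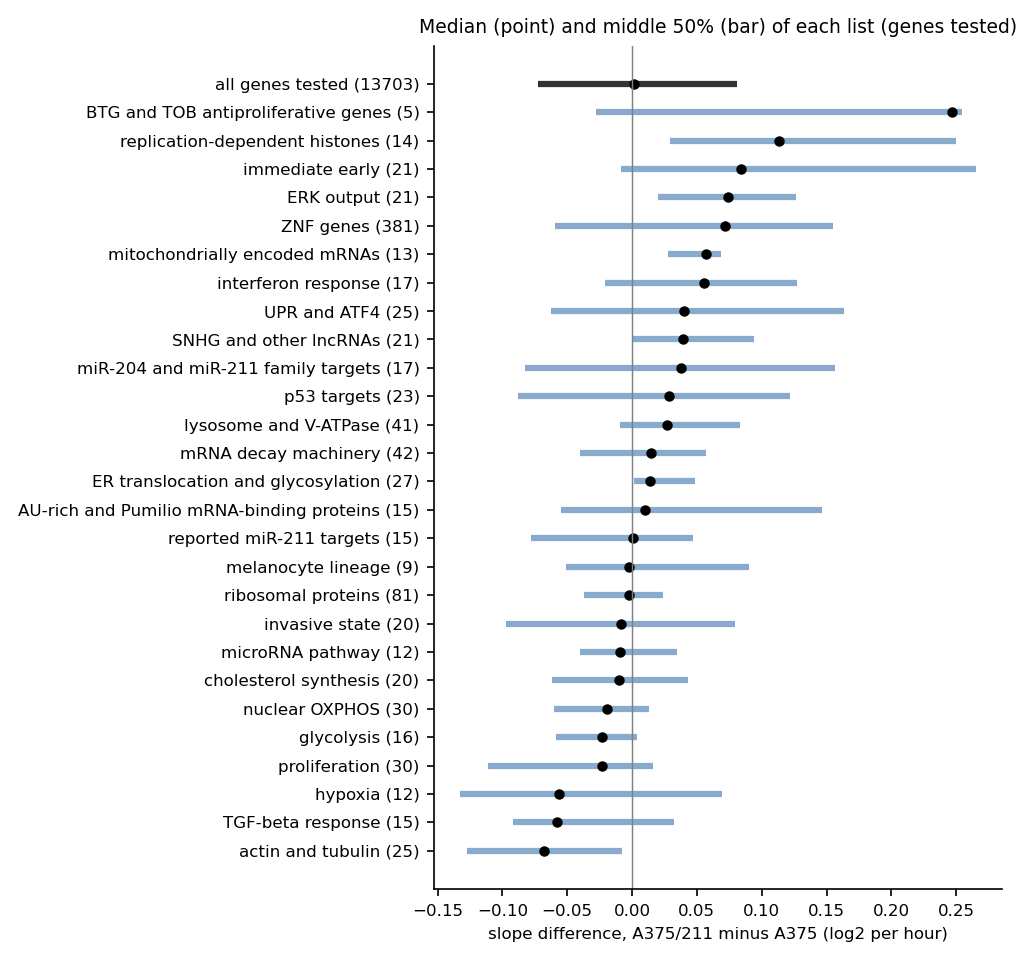
Median (point) and middle 50% (bar) of the slope difference, A375/211 minus A375 in log2 per hour, for each list with at least 5 genes tested, with all genes tested at the top and the number of genes in brackets. ZNF and ERK output genes have medians above 0 and actin and tubulin genes below 0, and the bars of most lists reach across 0.

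The slope difference also varied with the mean slope of a gene over the lines. When the genes were put into 10 groups of equal size by their mean slope, the group with the steepest falls (1371 genes) had a median slope difference of 0.049 (41.1% below 0), and the median declined to between -0.013 and -0.0094 in the 3 groups with the steepest rises. The steepest fallers had a median slope of -0.64 in A375 and -0.59 in A375/211. The pattern turned with 1 library. Without the A375/211 library of 6 h the median of the steepest falls was -0.22 and that of the ZNF, ERK and mitochondrial lists -0.17, -0.15 and -0.071. Without the A375 library of 6 h these medians were 0.22, 0.18, 0.097 and 0.19. The immediate early median went from -0.33 to 0.35 over the same pair of libraries and the ribosomal protein median from -0.27 to 0.17. The actin and tubulin median lay between -0.15 and -0.034 with each library left out. The median of the steepest falls was also below 0 without the A375 library of 3 h (-0.00063), without both 6 h libraries (-0.0078) and with the row that names no gene held constant (-0.039). The medians over all genes were then -0.015, -0.029 and -0.072 in the same order.

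**Figure D5:**
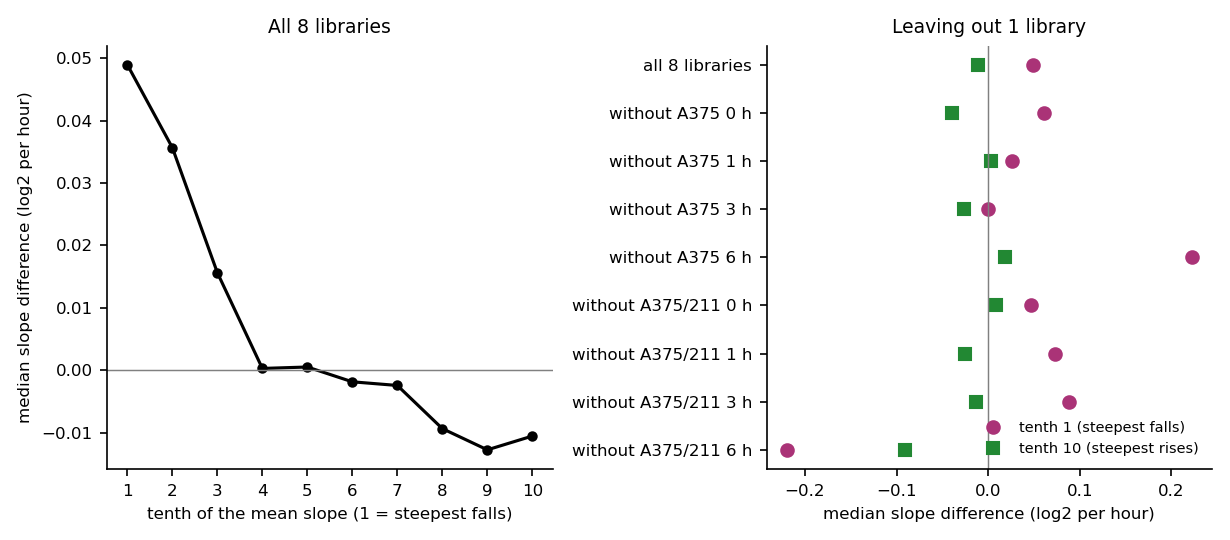
Left, median slope difference (log2 per hour) in each of 10 equal groups of genes by mean slope, from the steepest falls (1) to the steepest rises (10), with all 8 libraries. Right, the same median for the groups 1 and 10 with 1 library left out, where the steepest falls lie at -0.22 without the A375/211 library of 6 h and at 0.22 without the A375 library of 6 h.

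Total RNA gave little guide to the slope difference. Across 6383 genes whose log2 CPM averages 4 or more the slope difference and the RNA-seq log2 ratio of the lines had a Pearson correlation of 0.071 and a Spearman correlation of 0.012, given as a description since genes are not independent replicates.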

How the data were processed

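The authors deposited whole-number read counts per Ensembl gene with no normalization, 1 table for BRIC-seq and 1 for RNA-seq. Per the submitters' processing notes, reads were aligned with HISAT2 2.1.0 and StringTie was used. The notes name hg19 and the design text hg38, so coordinates come from GENCODE 44 (hg38), which gave 41209 of 60675 IDs a symbol. The sources used here do not give the strand setting or the handling of multi-mapping reads. A row that names no gene (0.000108% to 0.00122% of counts) was left out.

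Counts were fitted with edgeR 4.0.16 (R 4.3.3, TMM, filterByExpr by line with minimum count 10 and total 15, quasi-likelihood F test of the line by hours term, 4 residual degrees of freedom, Benjamini-Hochberg, threshold 0.05). DESeq2 1.42.0 and limma 3.58.1 were alternatives. Standard errors are the slope difference divided by the square root of F, which is unstable for differences near 0, so DESeq2's are given for DUSP6, RAB22A and NUAK1. Intervals are exact Poisson or conditional binomial for counts and ratios. For slopes the Poisson variance was carried through the fit. All cover counting error only. The script was tested on simulated data. The labels do not say whether libraries are separate cultures. The p-values rest on the scatter of these libraries about a straight line over the hours in each line. This scatter holds any bend of a time course as well as spread between libraries, and that spread may be technical.

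Named genes were the 12 of each sign with the smallest edgeR p among genes that have a symbol and average 4 or more log2 CPM, those called by DESeq2 at that level, BTG1, LAPTM4B, the reported targets, and up to 2 genes of each of 31 lists. HMGA2-AS1, GLIPR1-AS1, PAPPA-AS1 and DDX46 were added because they overlap candidates, and DUSP4, DUSP5, EGR1, BTG2, TOB1, TUBA1A and TUBA1B after their values were seen. The members and lists were chosen with earlier results of these data known.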

Additional observations from a re-analysis of the deposited data

Results flagged for a closer look

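DESeq2 called a difference of slopes between the lines for 10 of the named genes, which edgeR's quasi-likelihood test did not. In log2 per hour, A375/211 minus A375, DESeq2 gave 1.46 for BTG1, 1.11 for C5orf24, 0.87 for TMEM41B, 0.70 for LAPTM4B, 0.64 for GLIPR1, 0.48 for PAPPA and 0.36 for LRP8. On the other side it gave -0.72 for CBFB, -0.40 for RAN and -0.39 for HMGA2. The row that names no gene was used in no comparison between the lines other than as an alternative scale. It had 80 counts at 6 h in A375 and 81 in A375/211, against 3 at 0 h in each line, and its slope difference was 0.0088 with a counting interval of -0.18 to 0.20.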

How the results depend on the processing

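With 0 genes called by edgeR's quasi-likelihood test, DESeq2 called 18, the likelihood ratio test 23, no count filter 1 (SPECC1L-ADORA2A) and time as a shared term 1 (LAPTM4B). The 8 fits that each leave out 1 library called 0 to 0 genes, as did the other alternatives run. Leaving out a library leaves that time with 1 line, so the error is pooled over the other libraries. The seed contrast (genes with a match minus genes without) was 0.0076 log2 per hour, and 0.0071 and 0.0079 with other choices of UTR. These choices vary the UTR alone, and the contrast is not given with a library left out. Genes with a match had a lower median slope in A375 (-0.098 against 0.0067), and the median of the steepest falls turned with 1 library. No paired analysis was possible because no replicate number pairs the BRIC-seq libraries, whereas the shared time term matches the lines by time. That fit left 2 residual degrees of freedom and raised the genes with an unadjusted p under 0.05 from 527 to 1372.

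The candidates among the 12 smallest p of each sign and the DESeq2 calls kept their direction under all alternatives that tested them. They were chosen for their slope difference in these same libraries, so a kept direction is no separate evidence for them. Genes with low counts in a library, such as BTG1 and NEDD9, were not tested where at least 10 counts in every library were asked. Some other slope differences turned direction, and the cause was not tested. DUSP6 was -0.0052 by DESeq2, -0.027 with total counts, -0.0056 with upper-quartile scaling, -0.015 with no count filter, -0.0020 with hours rescaled, -0.0012 without both 0 h libraries and -0.079 with the row that names no gene held constant. RAB22A was -0.0038, -0.024 and -0.013 by DESeq2, total counts and no filter, -0.0047 with ranks of the times, -0.089 without both 6 h libraries and -0.070 with the row held constant. NUAK1 was 0.0051 by limma-voom, 0.055 with ranks, 0.0054 with time as a shared term and 0.17 without both 6 h libraries. Without both 0 h libraries AP1S2 was -0.056, KCNMA1 -0.061 and NFAT5 0.013, and without both 6 h libraries NDRG1 was 0.14. With the row held constant IGF2R was -0.037, KCNMA1 -0.024 and SOX11 -0.026. The median over all genes also moved with the scale, from 0.00165 with TMM to -0.028 with total counts and -0.072 with the row held constant. Over the fits with 1 library left out, DUSP6 ranged from -0.58 to 1.24, RAB22A from -0.27 to 0.17, NUAK1 from -0.099 to 0.19, KCNMA1 from -0.063 to 0.16, NFAT5 from -0.46 to 0.27, IGF2R from -0.023 to 0.048, POU3F2 from -0.54 to 0.11, SOX11 from -0.080 to 0.18 and TGFBR2 from -0.37 to 0.061.
Counts limit the low genes: the median standard error was 0.207 under 2 log2 CPM and 0.0571 at 8 and over. The alternatives with the row held constant, with at least 10 counts in every library and with MANE Select UTRs were chosen after seeing the data.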

Other observations

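Beyond the named genes, DESeq2 called 8 others. RGPD2 had 20, 0, 0 and 0 counts at 0, 1, 3 and 6 h in A375 and 122, 0, 0 and 77 in A375/211. MAGEA2 and MAGEA2B, a near-identical pair, had 342 and 340 counts at 3 h in A375 and 0 in the other 7 libraries. KPNA2P3 was above 0 in 2 libraries, with 167 and 56 counts. SPECC1L-ADORA2A, a readthrough gene, had 103 counts at 6 h in A375 and 53 at 0 h in A375/211, with 6 or fewer elsewhere. ENSG00000248710 rose from 0 to 111 counts in A375 and went from 46 to 0 in A375/211. TMED9, a cargo protein of the early secretory pathway, had 4, 4, 12 and 191 counts in A375 and 54, 45, 128 and 8 in A375/211. BMS1P22 fell from 68 to 0 counts in A375 and had 8, 6, 23 and 13 in A375/211. Whether reads of near-identical copies enter these counts was not tested, and 6 of the 18 genes called by DESeq2 did not pass the count filter of the edgeR fit.

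The likelihood ratio test called CLK1, a kinase that regulates splicing, which had 105, 93, 85 and 34 counts in A375 and 102, 53, 18 and 2 in A375/211 (slope difference -0.62, likelihood ratio adjusted p = 0.0422, DESeq2 adjusted p = 0.473). VRK3 had 17, 22, 36 and 12 counts in A375 and 37, 29, 7 and 0 in A375/211 (-0.96, likelihood ratio adjusted p = 0.0106, DESeq2 adjusted p = 0.710). Both had the lower slope in A375/211, were not called by DESeq2 and were chosen here after their values were seen.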
